A study of Mus musculus with 32 samples.

Results

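The 10 genes described here return nicotinamide, nicotinic acid and nicotinamide riboside (NR) to NAD+, phosphorylate NAD+ to NADP+, or divert its precursors. They were taken from the table of raw counts by symbol, and all 10 of them were found among its 32544 genes: *Nampt*, *Nmrk1*, *Naprt*, *Pnp*, *Nmnat1*, *Nmnat2*, *Nmnat3*, *Nadk*, *Nadk2* and *Nnmt*. The counts came from bulk RNA-Seq of kidney cortex from 32 mice at 25 weeks of age, in 8 groups of 4 mice that combined sex, genotype and treatment. All mice were of the C57BL/6J-Col4a3tm1Dec strain, in which the collagen IV α3 gene is disrupted in every cell of the body. Alport mice were Col4a3-/- and control mice were Col4a3+/-, so the controls also carried a disrupted allele, and no Col4a3+/+ mice were measured. Mice of each sex and genotype received vehicle or NR, a form of vitamin B3 and the substrate of the kinase encoded by *Nmrk1*.

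NAD+ is consumed as it signals, because sirtuins, poly-ADP-ribose polymerases and NAD+ glycohydrolases split off its nicotinamide. Cells refill the pool by salvage, in which nicotinamide phosphoribosyltransferase (NAMPT), NR kinase (NMRK1) or nicotinate phosphoribosyltransferase (NAPRT) makes a mononucleotide that the NMNAT enzymes couple to ATP. The kidney can also build NAD+ from tryptophan, and its proximal tubule, a segment that lives on fatty acid oxidation, depends on a large NAD+ pool.

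Library totals ran from 16621944 to 27778797 counts, with a median of 22071395. Levels are given as CPM, each library's counts divided by its total and scaled by the trimmed mean of M values (TMM) over the 32 libraries. The labelled sexes were separated by the Y-linked *Ddx3y* in 16 of 16 males. The targeted gene *Col4a3* lay at 49.0 to 83.7 CPM in the 16 Alport mice, so its transcript was reduced rather than absent. Of the 16 control mice, 2 fell within this range, both NR-treated males, a group whose lowest value was 59 CPM. All 12 proximal tubule markers were detected in each group, and their summed level was 22900 to 25200 CPM in vehicle-treated male controls against 8180 to 13000 CPM in vehicle-treated male Alport mice. In bulk tissue, fewer cells of a type and less RNA per cell cannot be told apart.

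In build mm10, *Nampt* lies on chr12:32819545-32853349 and *Nmrk1* on chr19:18631950-18652428, both on the plus strand. Per kilobase of exon, the genes spanned a wide range in vehicle-treated male controls. The cytosolic NAD kinase gene *Nadk* was highest at 56.0 ± 2.05 CPM per kb (SD, n = 4), followed by *Nampt* at 49.3 ± 1.05, *Nmrk1* at 35.5 ± 8.26, *Naprt* at 31.2 ± 0.773, the mitochondrial NAD kinase gene *Nadk2* at 27.3 ± 1.32 and *Pnp* at 23.6 ± 4.20. The neighbours *Nmrk1* and *Naprt*, and *Nadk2* and *Pnp*, lay within their spreads of each other. The adenylyltransferase genes were lower, with the nuclear *Nmnat1* at 5.28 ± 0.312 CPM per kb and the mitochondrial *Nmnat3* at 3.14 ± 0.384. *Nnmt*, which methylates nicotinamide and so removes it from salvage, stood at 0.167 ± 0.187 CPM per kb, and the axonal form *Nmnat2* at 0.0443 ± 0.0198. Of the exonic bases, 11.8% of *Naprt* overlapped *Eef1d* on the same strand, and 18% of *Pnp* overlapped *Gm49342* on the same strand and 8.95% *Gm38316* on the opposite strand, so levels of both genes may include reads of a neighbour. In addition, 11% of the 50-base windows of *Pnp* also occurred in its near copy *Pnp2*.

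RefSeq promoter windows of 250 bases (build GRCm38.p6) were found for 7 of the 10 genes, and none was found for *Naprt*, *Nadk2* and *Nnmt*. The windows of *Nampt* and *Pnp* are printed because *Nampt* was called lower in Alport mice of both sexes and *Pnp* was the only member called with NR. *Nmrk1*, *Nmnat1* and *Nadk* were also called lower in both sexes, and their windows are not printed. Capitals mark the GC box GGGCGG on either strand (CCGCCC on the opposite strand), a motif chosen after the levels had been seen, and both windows lie on the plus strand of their chromosome. *Nampt* (chr12:32820085-32820334) was 75.6% G or C with 5 such boxes, and *Pnp* (chr14:50944053-50944302) was 46.8% G or C with 1 box. Both windows precede RefSeq starts but lie inside the GENCODE spans of the genes, which begin at 32819545 for *Nampt* and 50931082 for *Pnp*.
Nampt: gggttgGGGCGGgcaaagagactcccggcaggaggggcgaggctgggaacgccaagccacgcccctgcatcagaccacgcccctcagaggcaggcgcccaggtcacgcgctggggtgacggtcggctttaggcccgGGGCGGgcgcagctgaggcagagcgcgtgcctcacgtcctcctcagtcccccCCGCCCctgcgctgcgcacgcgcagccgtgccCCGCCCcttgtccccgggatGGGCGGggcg
Pnp: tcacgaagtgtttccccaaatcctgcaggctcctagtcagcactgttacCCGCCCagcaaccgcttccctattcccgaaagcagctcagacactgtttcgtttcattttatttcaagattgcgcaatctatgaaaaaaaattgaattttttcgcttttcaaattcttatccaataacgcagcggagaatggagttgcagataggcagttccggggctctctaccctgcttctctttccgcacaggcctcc
A GC box was present in 32.7% of the 32841 promoter windows of that length. Among the unprinted windows of genes called lower in both sexes, *Nmrk1* and the first start of *Nadk* had no GC box. Each start of *Nmnat1* had 1, and the second start of *Nadk* had a GC box too. Neither window held the PPAR-RXR direct repeat AGGTCANAGGTCA (0.0335% of all windows, both strands searched) or the antioxidant response element core TGACNNNGC (10.2%). The E-box CACGTG (6.02%) occurred once among the members, in a second start of *Nadk*. A match of letters is a description and does not show binding.

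The first comparison asked how the genes stood in untreated disease, with vehicle-treated Alport mice against vehicle-treated controls of the same sex. *Nampt*, the gene for the main salvage step from nicotinamide, fell in both sexes. It was 248, 251, 256 and 244 CPM in the 4 male controls and 133, 116, 128 and 139 CPM in the 4 male Alport mice. In females it was 243, 243, 242 and 229 CPM in controls and 106, 158, 107 and 128 CPM in Alport mice. Every Alport mouse was below every control, and the log2 fold change was -0.87 ± 0.08 (SE) in males (edgeR quasi-likelihood test, adjusted p = 2.74e-06) and -0.90 ± 0.12 in females (adjusted p = 0.000251).

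*Nmrk1* encodes the kinase that phosphorylates NR itself, and it differed between the sexes in controls. Male controls had 134, 140, 88.7 and 161 CPM, and male Alport mice 70.4, 71.9, 64.2 and 64.7 CPM. Female controls had 101, 90.2, 78.9 and 76.1 CPM, and female Alport mice 59.5, 68.4, 70.6 and 66.5 CPM. The Alport values were alike in the sexes and did not overlap the controls in either sex, and the controls were higher in males. By the edgeR quasi-likelihood test, the log2 fold change was -0.87 ± 0.15 in males (adjusted p = 0.000422) and -0.35 ± 0.09 for females (adjusted p = 0.011). The difference between these changes was 0.49 ± 0.19 on the log2 scale (95% interval 0.09 to 0.89), with an unadjusted p of 0.0187 and an adjusted p of 0.292 in the edgeR fit of 16 mice. With each of the 16 mice left out in turn, that difference ran from 0.37 to 0.64 and the edgeR adjusted p from 0.0418 to 0.48. Only the omission of male control replicate 3, whose *Nmrk1* was 88.7 CPM, gave a call (0.64, adjusted p = 0.0418).

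*Naprt*, which starts salvage from nicotinic acid, was 71.5 to 75.6 CPM in male controls against 42.2 to 55.7 CPM in male Alport mice, and 59.6 to 68.2 CPM against 38.3 to 52.2 CPM in females. Its groups did not overlap in either sex. The log2 fold change was -0.50 ± 0.09 in males (edgeR adjusted p = 0.000516) and -0.53 ± 0.09 in females (adjusted p = 0.00124). *Pnp*, a purine nucleoside phosphorylase that can also split NR into nicotinamide and ribose phosphate, was not called: its log2 fold change was -0.14 (95% interval -0.39 to 0.11) in males and 0.18 (0.004 to 0.357) in females.

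Among the adenylyltransferase genes, *Nmnat1* was called lower in Alport mice and *Nmnat3* was not called. *Nmnat1* was 15.1 to 17.3 CPM in male controls and 10.7 to 14.2 CPM in male Alport mice, and 12.9 to 16.2 CPM and 9.93 to 12.7 CPM in females. The log2 fold change was -0.34 ± 0.11 in each sex (edgeR, adjusted p of 0.0223 for males, 0.0295 for females). Among the 7 genes called in each sex it was the only one whose call was lost when 1 mouse was left out: the adjusted p rose to 0.0564 to 0.0646 without male Alport replicate 1 or 3 or male control replicate 2, and to 0.062 to 0.0844 without female Alport replicate 1 or 3 or female control replicate 2 or 3. *Nmnat3* had log2 fold changes of -0.05 (95% interval -0.29 to 0.19) in males and -0.18 (-0.40 to 0.04) in females. *Nmnat2* had only 2 to 20 counts per mouse over the 32 libraries. It was too low to be tested in the males of the main fit and was not called in females. With 1 male left out in turn, 6 to 8 members were called by edgeR. *Pnp* and *Nmnat3* stayed at adjusted p-values of at least 0.119 and 0.382 there, so the added call was *Nmnat2*, on these low counts.

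Both NAD kinase genes fell. *Nadk2* was 135, 138, 150 and 136 CPM in male controls against 75.7, 66.1, 66.6 and 73.9 CPM in male Alport mice. In females it was 113, 106, 119 and 102 CPM against 46.3, 70.7, 54.3 and 59.4 CPM. The 2 sets of values lay well apart in both sexes, with log2 fold changes of -0.90 ± 0.07 in males (edgeR adjusted p = 1.88e-06) and -0.89 ± 0.12 in females (adjusted p = 0.000235). *Nadk* was 201 to 218 CPM in male controls and 125 to 172 CPM in male Alport mice, and 145 to 170 CPM and 121 to 134 CPM in females. Its log2 fold change was -0.40 ± 0.10 in males (edgeR adjusted p = 0.00701) and -0.30 ± 0.07 in females (adjusted p = 0.00565).

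*Nnmt* was the only member called higher in Alport mice. It had 0.00, 0.0428, 0.393 and 0.618 CPM in male controls and 1.83, 2.16, 2.67 and 2.41 CPM in male Alport mice, from 0 to 13 counts and 45 to 70 counts per library. Female controls had 0.387, 0.263, 0.353 and 0.0456 CPM, and female Alport mice 2.34, 0.981, 2.23 and 1.003 CPM. No control reached an Alport mouse of its sex, although the gene stayed far below the others in level. The log2 fold change was 3.16 ± 0.59 in males (edgeR adjusted p = 0.000823) and 2.65 ± 0.49 in females (adjusted p = 0.00144), and it rested on the low counts of the controls.

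In counts, 6 of the 9 tested members fell and 1 rose in males, and 6 of the 10 fell and 1 rose in females, with the same 7 genes in the same directions. Groups did not overlap for 7 members in males, beside 50.3% of all genes, and for 8 in females, beside 44.3%. Over all genes, 51% were called in males (26.8% higher and 24.2% lower) and 45.8% in females (24% higher and 21.8% lower), so a call in this comparison was common. The median log2 fold change was -0.40 over the members tested in males and -0.32 in females, beside -0.001 over all genes tested in each sex. The plot of levels by mouse shows both the drop and the mice that depart from it.

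**Figure D1:**
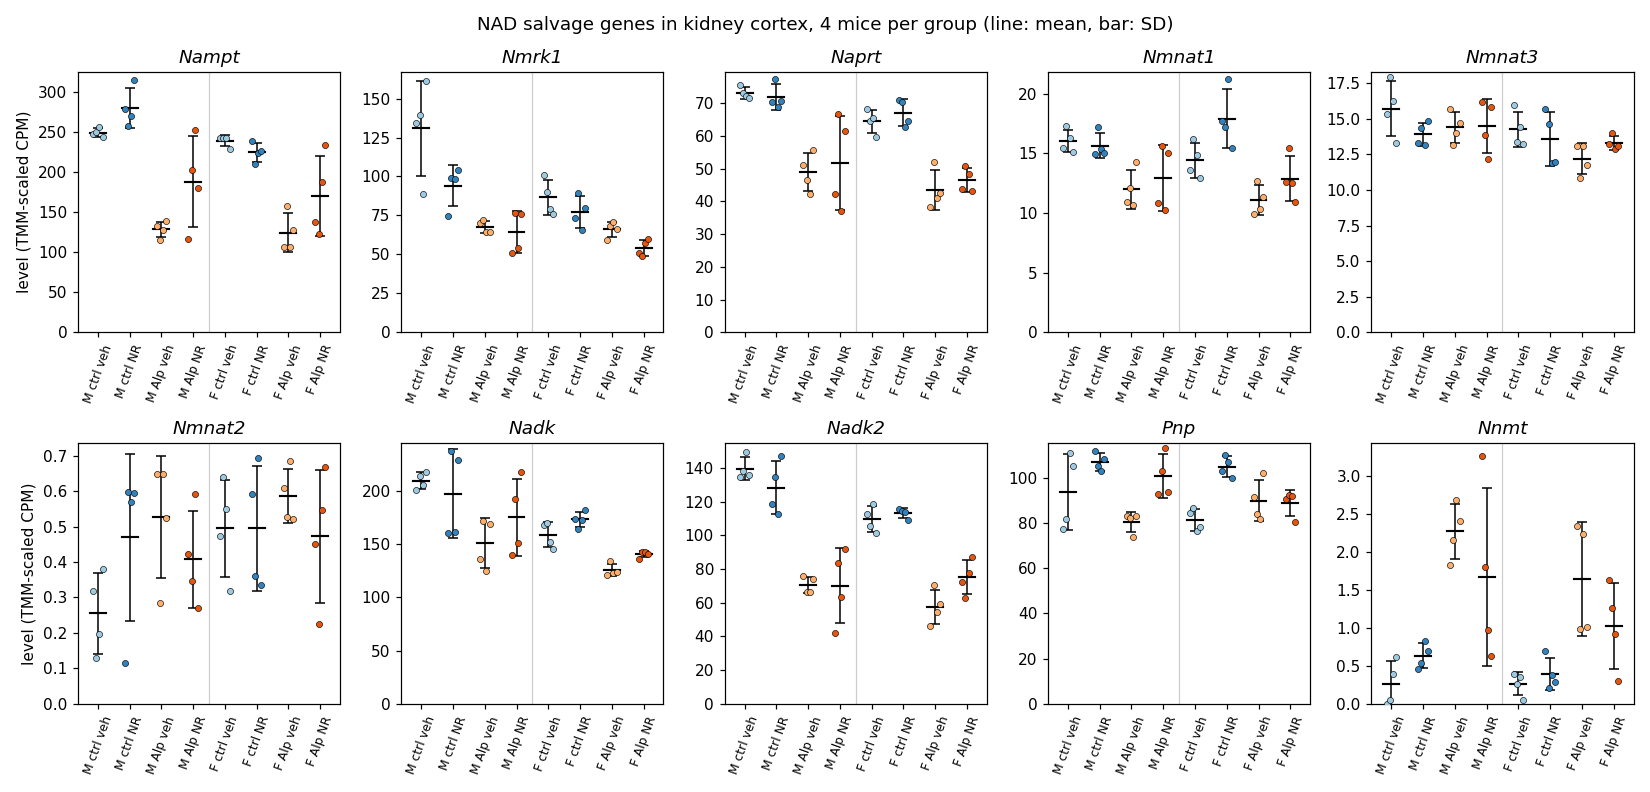
TMM-scaled CPM (vertical axes, each from 0) of the 10 genes in the 8 groups (M, male; F, female; ctrl, Col4a3+/- control; Alp, Col4a3-/- Alport; veh, vehicle; NR, nicotinamide riboside). Points are mice, lines are group means and bars are SD (n = 4); in vehicle-treated mice *Nampt* was 244 to 256 CPM in male controls and 116 to 139 CPM in male Alport mice, whereas the NR-treated male Alport mice spread from 117 to 253 CPM.

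Marker genes moved with the same contrast. In vehicle-treated females, the proximal tubule sum was 18900 to 22200 CPM in controls and 8040 to 13200 CPM in Alport mice. The sum of 9 immune markers was 67.2 to 90.8 CPM in male controls and 432 to 601 CPM in male Alport mice, and 81.4 to 151 CPM and 344 to 614 CPM in females. The sum of 6 fibroblast and myofibroblast markers was 86.1 to 101 CPM and 636 to 1020 CPM in males, and 108 to 167 CPM and 510 to 836 CPM in females. No marker of these 3 lists was at 0 in any group, and their part in the changes of the NAD+ genes was not tested.

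**Figure D2:**
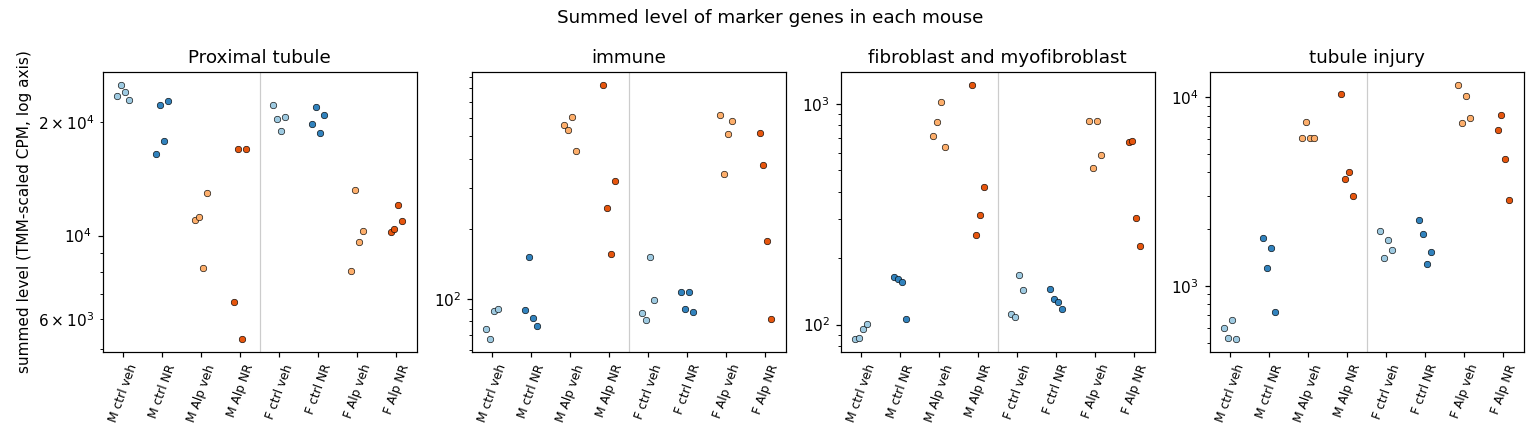
Summed TMM-scaled CPM (log axes) of 4 marker lists in each mouse, by group, with 1 point per mouse (group names as in the plot of levels by mouse). The proximal tubule sum was 22900 to 25200 CPM in vehicle-treated male controls and ran from 5310 to 17000 CPM in NR-treated male Alport mice, with 2 mice near 17000 CPM and 2 at 6641 and 5311 CPM.

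The Alport mice varied enough among themselves to relate each gene to these sums. Over the 16 Alport mice, 20 relations were computed (10 genes with the proximal tubule sum and with the sum of 5 tubule injury markers, all as log2 CPM), after the levels had been seen. Each gene and each sum came from the same library, and CPM values are shares of a common total. Benjamini-Hochberg adjusted p-values from 100000 permutations are given, of which 1e-05 is the smallest unadjusted p that can occur. Mice were permuted without regard to sex and treatment group, and the smaller sets given below also mixed groups. In female Alport mice the median injury sum was 9010 CPM with vehicle and 5720 CPM with NR. In male Alport mice it was 6120 CPM with vehicle and 3840 CPM with NR. Differences between groups can therefore enter r, rho and their p-values, and relations within single groups were not tested.

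*Nampt* followed the injury sum inversely, with Pearson's r = -0.89 (permutation p = 3e-05, adjusted p = 0.0003) and Spearman's rho = -0.883 (p = 3e-05, adjusted p = 0.0002). Without the 2 mice farthest from the median sum, r was -0.891. It was -0.825 in the 8 males (exact permutation p = 0.0119, adjusted p = 0.0446) and -0.969 in the 8 females (exact permutation p = 0.000273, adjusted p = 0.00546). Within the 8 NR-treated Alport mice r was -0.878 (exact permutation p = 0.00702), and within the 8 vehicle-treated ones -0.706 (exact permutation p = 0.0515), where it dropped to -0.0629 without the 2 farthest mice. Osteopontin (*Spp1*) made up 91.8% to 95.9% of the mean injury sum in Alport groups. With the other 4 markers alone, r for *Nampt* was -0.738 over the 16 mice (permutation p = 0.00102, adjusted p = 0.0051). Within the 8 NR-treated mice it was then -0.542 (exact permutation p = 0.161, adjusted p = 0.402), and 0.0534 without the 2 farthest, and within the 8 vehicle-treated mice -0.848 (exact permutation p = 0.00853, adjusted p = 0.0853). *Nampt* was not related to the proximal tubule sum, with r = 0.143 (permutation p = 0.598, adjusted p = 0.704) and rho = 0.408 (adjusted p = 0.225), though r was 0.653 without the 2 farthest mice.

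*Naprt* rose with the proximal tubule sum, with r = 0.883 (permutation p = 1e-05, adjusted p = 0.0002), rho = 0.936 (p = 1e-05, adjusted p = 0.0002) and r = 0.923 without the 2 farthest mice. In the sexes r was 0.967 in 8 males (exact permutation p = 0.000347) and 0.843 in 8 females (exact permutation p = 0.00719), where it was 0.56 without the 2 farthest. Its relation to the injury sum did not pass the test (r = -0.43, permutation p = 0.0972, adjusted p = 0.194, rho = -0.402). The correlations of *Nampt* and *Naprt* were not tested against each other, and in the 8 vehicle-treated Alport mice they had the same signs. There r with the injury sum was -0.706 for *Nampt* and -0.724 for *Naprt* (exact permutation p = 0.0515 and 0.0405, adjusted p = 0.153 for both). With the proximal tubule sum it was 0.717 for *Nampt* and 0.899 for *Naprt* (exact permutation p = 0.0439 and 0.00308, adjusted p = 0.153 and 0.0268). *Nmnat1* rose with the proximal tubule sum over all Alport mice (r = 0.756, permutation p = 0.00055, adjusted p = 0.00275, rho = 0.818, r without the 2 farthest 0.778). Its r was 0.903 in 8 males (exact permutation p = 0.00315, adjusted p = 0.0206). In 8 females it did not pass, with r = 0.516 (exact permutation p = 0.182, adjusted p = 0.332). Without the 2 farthest mice, r was 0.936 in males and 0.221 in females, and the difference between the sexes was not tested.

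*Nadk2* was related to both sums, inversely to injury (r = -0.85, permutation p = 7e-05, adjusted p = 0.000467, rho = -0.879, r without the 2 farthest -0.791) and directly to the proximal tubule (r = 0.708, permutation p = 0.00236, adjusted p = 0.0085, rho = 0.747, and 0.747). In the 8 males, its r with injury was -0.309 without the 2 farthest mice, so there the relation rested on those mice. Over the 16 mice without *Spp1* it was -0.696 (permutation p = 0.00305, adjusted p = 0.0102). *Nnmt* rose with the injury sum (r = 0.70, permutation p = 0.00255, adjusted p = 0.0085, rho = 0.591 with adjusted p = 0.05, r without the 2 farthest 0.43). Without *Spp1* its r was 0.841 (permutation p = 9e-05, adjusted p = 0.0009). In the 8 vehicle-treated Alport mice alone, however, *Nnmt* was not related to the injury sum, with r = 0.0348 (exact permutation p = 0.954), rho = -0.19 and r = -0.74 without the 2 farthest, while in the 8 NR-treated mice r was 0.787 (exact permutation p = 0.0175, adjusted p = 0.072). *Nmrk1* and *Nadk* passed with the proximal tubule sum by Pearson's r (0.621, adjusted p = 0.0246, and 0.581, adjusted p = 0.0418, both by permutation). Spearman's rho was 0.618 (adjusted p = 0.0402) and 0.565 (adjusted p = 0.0548), and r without the 2 farthest mice 0.491 and 0.855. *Nadk* passed with the injury sum (r = -0.622, permutation p = 0.00984, adjusted p = 0.0246, rho = -0.583, r without the 2 farthest -0.607), but not with the 4 injury markers other than *Spp1* (r = -0.199, permutation p = 0.449, adjusted p = 0.749). For *Nmrk1* and the proximal tubule sum, r was 0.90 in 8 males (exact permutation p = 0.00298) and 0.125 in 8 females (exact permutation p = 0.767), and the difference between the sexes was not tested. *Nmnat2*, *Nmnat3* and *Pnp* passed with neither sum.

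**Figure D3:**
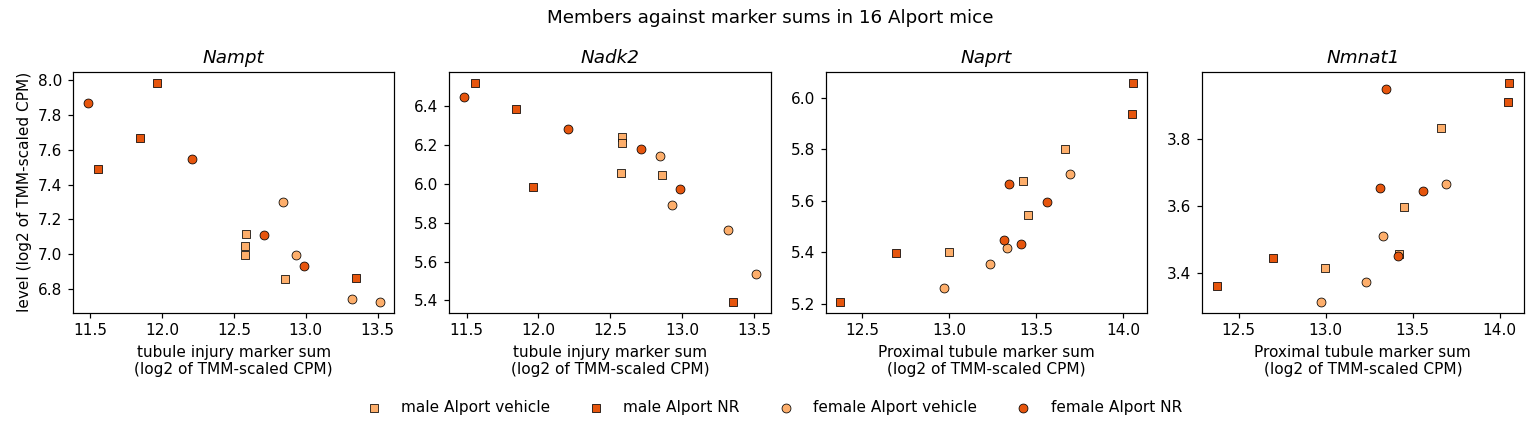
Level of 4 genes (vertical axes, log2 of TMM-scaled CPM) against the summed level of tubule injury or proximal tubule markers (horizontal axes, log2 of TMM-scaled CPM) in the 16 Alport mice, 1 point per mouse; squares are males, circles females, light points vehicle and dark points NR. *Nampt* falls as the injury sum rises (r = -0.89) and *Naprt* rises with the proximal tubule sum (r = 0.883).

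The next comparison asked whether NR changed these genes in Alport mice. None of the 10 members was called in either sex by the edgeR quasi-likelihood test, beside 0% of 15500 genes in males and 0.477% in females, and none by DESeq2 or limma-voom. At an unadjusted p under 0.05 there were 2 members and 785 genes (5.06%) in males, and 3 members and 2627 genes (16.7%) in females.

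*Nampt* was 117, 203, 253 and 179.6 CPM in the NR-treated male Alport mice, against 116 to 139 CPM with vehicle. Replicates 2, 3 and 4 of the treated males were above every vehicle-treated one, and replicate 1 was not. Replicate 1 also had the highest immune, fibroblast and injury sums of the 4, at 831, 1220 and 10460 CPM, where the others had 156 to 321, 254 to 418 and 3009 to 3999 CPM, and the part of these in its *Nampt* level was not tested. The log2 fold change was 0.54 (95% interval 0.06 to 1.02, unadjusted p = 0.0326, adjusted p = 0.939 by edgeR). With each mouse left out in turn it ran from 0.36 to 0.71, and only the omission of treated replicate 1 gave a call (0.71, adjusted p = 0.045). NR-treated females had 138, 122, 187 and 233 CPM against 106 to 158 CPM, with a log2 fold change of 0.46 (95% interval -0.02 to 0.94, adjusted p = 0.315). In both sexes the treated mice overlapped the vehicle-treated ones.

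*Nmrk1*, the kinase gene for the administered compound, was not higher with NR. It was 50.9, 76.4, 54.3 and 76.2 CPM in NR-treated male Alport mice, with a log2 fold change of -0.08 (95% interval -0.43 to 0.26). NR-treated females had 50.9, 48.9, 57.6 and 59.9 CPM against 59.5 to 70.6 CPM with vehicle, and the log2 fold change was -0.28 (-0.49 to -0.06, unadjusted p = 0.0178, adjusted p = 0.211 by edgeR). All but 1 of the treated females were below the vehicle-treated ones.

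*Nadk* was 136, 143, 143 and 141 CPM in NR-treated female Alport mice and 121, 134, 123 and 124 CPM with vehicle. These groups did not overlap, as was the case for 9.1% of all genes tested, and the log2 fold change was 0.17 (95% interval 0.003 to 0.338, unadjusted p = 0.0469, adjusted p = 0.292 by edgeR). In males it was 0.21 (-0.19 to 0.61). *Nadk2* had a log2 fold change of -0.02 (95% interval -0.51 to 0.48) in males, where replicate 1 was lowest at 42.0 CPM, and 0.39 (0.06 to 0.72, adjusted p = 0.238 by edgeR) in females. *Pnp* was 93.1 to 114 CPM with NR and 74.1 to 83.1 CPM with vehicle in males, groups that did not overlap, as was the case for 3.43% of all genes tested. Its log2 fold change was 0.31 (0.08 to 0.55, unadjusted p = 0.0151, adjusted p = 0.886 by edgeR), and in females it was -0.01 (-0.21 to 0.20). *Nnmt* had estimates of -0.46 (-1.49 to 0.57) in males and -0.69 (-1.78 to 0.40) in females.

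NR in control mice addressed the effect of the compound in Col4a3+/- animals. In male controls, markers moved with NR as well: 4 of 5 tubule injury markers (median log2 fold change 2.18), 6 of 6 endothelial (0.68), 2 of 6 fibroblast (0.66) and 1 of 8 tested immune markers (0.75) were called higher. The injury sum was 723 to 1800 CPM with NR and 523 to 662 CPM with vehicle, and the part of these markers in the male control results was not tested. These NR-treated males include the 2 controls with *Col4a3* within the Alport range. In females *Pnp* was called: it was 84.8, 86.7, 76.4 and 78.5 CPM with vehicle and 103, 110.3, 107 and 100.2 CPM with NR. Each treated mouse exceeded each vehicle-treated one, as groups did not overlap for 14.4% of all genes tested, and the log2 fold change was 0.36 ± 0.06 (edgeR adjusted p = 0.00766). It was the only call among 9 members tested, beside 6.18% of all genes (3.91% higher). In 1 fit of all 32 mice the estimate was 0.37 with an adjusted p of 0.114. In male controls *Pnp* was 77.7, 81.7, 111 and 105 CPM with vehicle and 103 to 112 CPM with NR, with a log2 fold change of 0.20 (95% interval -0.06 to 0.46). The response of *Pnp* in female controls and in female Alport mice differed by -0.39 ± 0.11 on the log2 scale, with an unadjusted p of 0.00193 and an adjusted p of 0.376 in the edgeR fit, in which none of 16064 genes passed and 1521 had an unadjusted p under 0.05.

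In male controls 0 of 9 members tested was called, beside 4.53% of all genes, with 2 members at an unadjusted p under 0.05 beside 23.1% of all genes. *Nampt* was 279, 258, 269.5 and 314 CPM with NR, above all 4 vehicle-treated mice (244 to 256 CPM), with a log2 fold change of 0.18 (95% interval 0.004 to 0.349, adjusted p = 0.207 by edgeR). Groups did not overlap for 13.3% of all genes in that comparison. In female controls the estimate was -0.09 (-0.23 to 0.04), and the difference between the sexes was -0.26 (-0.45 to -0.06, unadjusted p = 0.0131, adjusted p = 0.182). *Nmrk1* was 74.9, 99.0, 98.3 and 104 CPM in NR-treated male controls, with a log2 fold change of -0.47 (-0.84 to -0.09, adjusted p = 0.134 by edgeR). With each mouse left out in turn it ran from -0.62 to -0.35 (adjusted p 0.0342 to 0.306). Only the omission of vehicle-treated replicate 3 gave a call (-0.62, adjusted p = 0.0342).

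**Figure D4:**
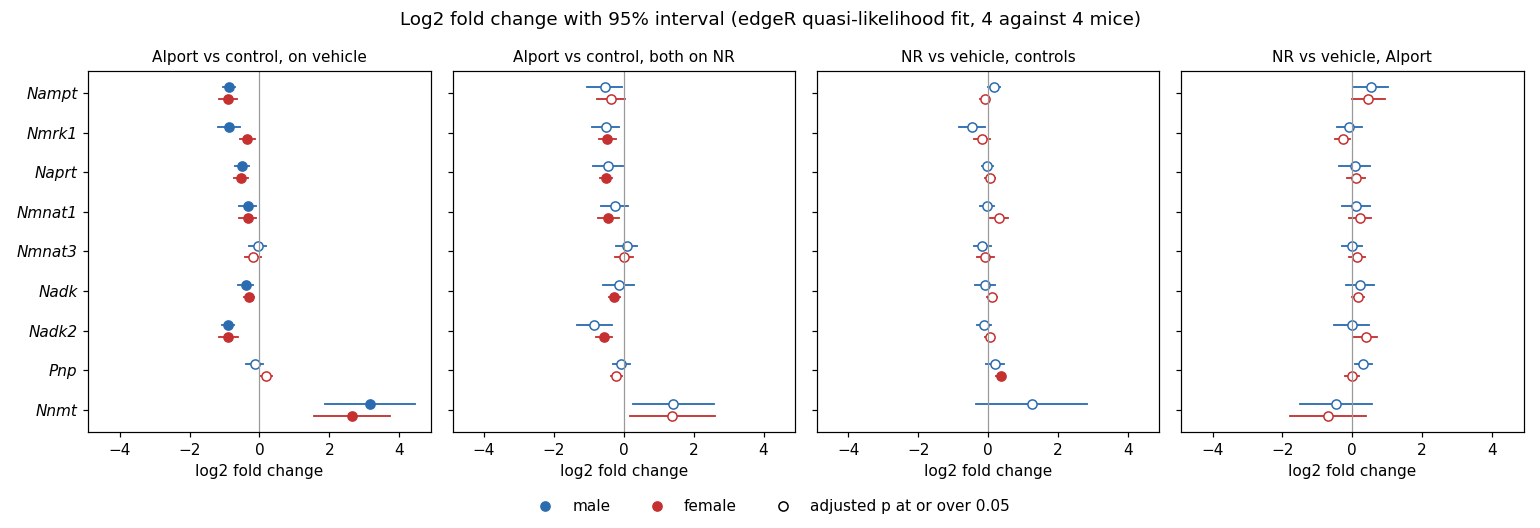
Log2 fold changes (horizontal axes) with 95% intervals from the edgeR fits of 4 against 4 mice, males in blue and females in red, for 4 comparisons; open points have an adjusted p at or over 0.05, *Nmnat2* is left out, and *Nnmt* was not tested for NR in female controls. Filled points are 7 genes in each sex in the vehicle comparison, 5 genes in females in the comparison on NR, and *Pnp* for NR in female controls.

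With NR given to both genotypes, the sexes gave different counts of calls, and a difference between the sexes in this contrast was not tested. The male controls here include the 2 with *Col4a3* at or below the highest Alport mouse. In NR-treated male controls as a group, injury and endothelial markers were higher than on vehicle, as given above. In females 5 of 10 members were lower in Alport mice, beside 27.5% of all genes (13.1% lower): *Nmrk1* (log2 fold change -0.47 ± 0.11, adjusted p = 0.00914 by edgeR), *Naprt* (-0.50 ± 0.08, 0.00183), *Nmnat1* (-0.45 ± 0.14, 0.0328), *Nadk* (-0.27 ± 0.07, 0.015) and *Nadk2* (-0.56 ± 0.10, 0.00282). *Nampt* was at -0.37 (95% interval -0.76 to 0.03, adjusted p = 0.157 by edgeR). Only the omission of NR-treated Alport replicate 4 gave it a call (-0.56, adjusted p = 0.00813), when *Nnmt* was called too. The *Nmnat1* call was lost without Alport replicate 1 or 3 or control replicate 1, 2 or 3 (adjusted p 0.0586 to 0.0896), and the *Nadk* call without control replicate 4 (0.0526). In males no member was called by edgeR, nor any of 14884 genes, with 5 members and 3214 genes (21.6%) at an unadjusted p under 0.05. DESeq2 called *Nadk2* alone (1381 genes in all), and limma-voom none. Estimates in males were -0.85 (-1.35 to -0.34) for *Nadk2*, -0.55 (-1.04 to -0.06) for *Nampt*, -0.52 (-0.91 to -0.13) for *Nmrk1* and -0.45 (-0.87 to -0.03) for *Naprt*. No member was called when any 1 of the 8 mice was left out, either.

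NR-treated Alport mice were also set against vehicle-treated controls, which are the controls of the first comparison, so the values are given side by side. In males, *Nmrk1* was at -0.97 ± 0.21 (edgeR adjusted p = 0.0137) and *Nadk2* at -0.94 ± 0.22 (0.0171), 2 of 9 members tested beside 21.2% of all genes (6.81% lower). *Nnmt* was at 2.68 ± 0.85 with an edgeR adjusted p of 0.0506, and was called higher by DESeq2 (2.70, 0.0135), limma-voom (3.33, 0.0441), 1 fit of all 32 mice (2.63, 0.00187) and without NR-treated Alport replicate 4 (2.93, 0.0373). *Naprt* was at -0.44 (adjusted p = 0.111), and was called in 1 fit of all 32 mice (-0.51, 0.00193) and without NR-treated Alport replicate 2 (-0.60, 0.0365). In females *Nmrk1* (-0.66 ± 0.11, 0.00266), *Naprt* (-0.47 ± 0.08, 0.00309) and *Nadk2* (-0.54 ± 0.11, 0.00601) were called lower, 3 of 9 beside 23.5% (11.6% lower). *Nampt* was at -0.35 (95% interval -0.83 to 0.12) in males and -0.48 (-0.88 to -0.08, adjusted p = 0.0792) in females, where DESeq2 (-0.46, 0.0473) and 1 fit of all 32 mice (-0.49, 0.0397) called it. Without NR-treated female Alport replicate 4, which had the lowest injury sum of the Alport mice at 2860 CPM, 6 members were called, *Nampt* among them at -0.65 with an adjusted p of 0.00552.

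Levels of 3 genes differed by sex in vehicle-treated controls. Females were lower for *Nmrk1* (log2 fold change -0.58 ± 0.15, edgeR adjusted p = 0.0139), *Nadk* (-0.38 ± 0.07, adjusted p = 0.00127) and *Nadk2* (-0.32 ± 0.07, adjusted p = 0.00372), 3 of 8 members tested beside 31.7% of all genes (15.8% lower). The *Nadk2* call was lost in 1 fit of all 32 mice (-0.35 ± 0.15, adjusted p = 0.107), and DESeq2 also called *Naprt* (-0.17, adjusted p = 0.0485). *Nampt* had the narrowest interval, at -0.04 (95% interval -0.16 to 0.09). No member was called in the 5 tests of a difference between effects (sex by genotype, NR by genotype in each sex, and sex by NR in each genotype), beside 0.532% of all genes for sex by genotype, 0.683% for sex by NR in controls and 0% in the others. At an unadjusted p under 0.05 these tests held 1, 0, 2, 2 and 1 members in that order (sex by NR in controls before Alport), beside 12%, 8.85%, 9.47%, 16% and 2.24% of all genes, and DESeq2 and limma-voom called none.

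The other genes of NAD+ metabolism give the setting. Of the 10 genes of de novo synthesis from tryptophan, 7 fell in Alport mice on vehicle in each sex and none rose. Over all genes, 24.2% were called lower in males and 21.8% in females. The 7 genes were *Ido2*, *Afmid*, *Kmo*, *Kynu*, *Haao*, *Acmsd* and *Nadsyn1*, which encode steps of the kynurenine route, its branch to acetyl-CoA (*Acmsd*) and the final amidation (*Nadsyn1*). *Kmo*, kynurenine monooxygenase, had log2 fold changes of -1.27 ± 0.13 in males (edgeR adjusted p = 1.2e-05) and -1.21 ± 0.15 in females (0.000162). *Qprt*, which makes nicotinic acid mononucleotide at the end of the route, was at -0.03 and -0.07 and was not called, nor were *Tdo2* and *Ido1*. The median of the list was -0.88 in males and -0.81 in females. With NR, *Kynu* was called higher in male controls (1.08 ± 0.23, edgeR adjusted p = 0.0301) and *Haao* in female controls (0.29 ± 0.07, adjusted p = 0.0413). Over all genes, 4.53% and 6.18% were called in these comparisons. In the male one injury and endothelial markers were also higher, as given above, and their part in the *Kynu* call was not tested. In the female one, 1 fit of all 32 mice called 18 genes instead of 924.

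Of the 12 genes of NAD+ users, 3 rose and 2 fell in males, and 2 rose and 6 fell in females. Over all genes, 51% were called in males (26.8% higher and 24.2% lower) and 45.8% in females (24% higher and 21.8% lower). A call in this comparison was thus common. The mitochondrial deacetylase gene *Sirt3* fell by 0.92 ± 0.10 on the log2 scale in males (edgeR adjusted p = 1.75e-05) and by 0.95 ± 0.13 in females (0.000321), and *Sirt7* fell in both sexes. *Sirt1*, *Sirt2*, *Sirt4* and *Sirt5* were called lower in females, with log2 fold changes from -0.44 to -0.17. The test of sex by genotype called none of the 12 genes, beside 0.532% of all genes, so calls in 1 sex alone do not show a difference between the sexes. The NAD+ glycohydrolase genes rose: *Cd38* by 0.86 ± 0.13 in males and 0.86 ± 0.18 in females, and *Bst1* by 2.31 ± 0.40 and 1.49 ± 0.19, all passing the test, from 6.04 and 1.60 CPM in male controls. Both are expressed by leukocytes, and the immune sum rose in the same mice, as given above. The part of immune cells in these 2 rises was not tested. *Parp2* rose in males (0.33 ± 0.10, adjusted p = 0.0147), *Parp1* was at 0.01 and 0.05 without a call, and *Bst1* rose with NR in male controls (1.80 ± 0.44, adjusted p = 0.0475), where injury and endothelial markers were also higher, as given above.

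Of 16 genes for precursor handling and transport, 2 rose and 5 fell in males (16 tested), and 4 rose and 4 fell in females (14 tested). The shares called over all genes were 51% in males and 45.8% in females. *Slc25a51*, the mitochondrial NAD+ carrier, fell by 0.57 ± 0.09 in males (edgeR adjusted p = 0.000211) and by 0.40 ± 0.09 in females (0.0031). *Slc5a8*, a monocarboxylate carrier that takes up nicotinate, fell by 0.998 ± 0.121 and 0.696 ± 0.161, and *Slc29a3* fell in both sexes too, as *Nt5c2* and *Nt5c3* did in males and *Slc22a13* in females. The nucleotidase gene *Nt5c1a* rose in both sexes, the equilibrative nucleoside transporter *Slc29a1* in males, and *Nt5e*, *Nt5c* and *Pnp2* in females. None of the 16 genes was called in the test of sex by genotype, so here too calls in 1 sex alone do not show a difference between the sexes. *Slc5a8* was called higher with NR in female controls (0.27 ± 0.07, edgeR adjusted p = 0.0418), where 1 fit of all 32 mice called 18 genes instead of 924.

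Among 6 genes of nicotinamide disposal and NADP(H) exchange, the NADH hydrolase gene *Nudt12* and the transhydrogenase gene *Nnt* fell in both sexes, by 0.90 ± 0.12 and 0.86 ± 0.10 in males and by 0.88 ± 0.11 and 0.75 ± 0.10 in females. These are RNA levels, and whether the *Nnt* transcript of this strain encodes a working enzyme was not examined. Of the 5 genes tested in each sex, 1 rose and 3 fell in males, and 2 rose and 3 fell in females. The shares called over all genes were 51% in males and 45.8% in females. *Aox1*, whose oxidase acts on methylated nicotinamide, rose from 0.414 CPM by 2.72 ± 0.38 on the log2 scale in males and by 1.28 ± 0.30 in females. It was also higher with NR in male controls (1.91 ± 0.43, edgeR adjusted p = 0.0373), where injury and endothelial markers were higher too, as given above. *Cyp2e1* moved in opposite directions, at -0.82 ± 0.19 in males (edgeR adjusted p = 0.00317) and 0.41 ± 0.12 in females (0.0165), and the test of that difference gave 1.198 ± 0.243 (adjusted p = 0.0365). It was the only call among the 5 genes of the list in that test, beside 0.532% of all genes. The number of genes called there depended on the method: 86 in the main fit, 258 by DESeq2, 46 by limma-voom, 52 with RLE factors and 5 in 1 fit of all 32 mice. *Noct*, a phosphatase of NADP(H), fell in females (-0.60 ± 0.17, adjusted p = 0.0135). In Alport mice no gene of these 4 lists was called for NR against vehicle in either sex, beside 0% of 15500 genes in males and 0.477% in females. As no gene at all was called in males, that comparison cannot set the lists apart from other genes.

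**Figure D5:**
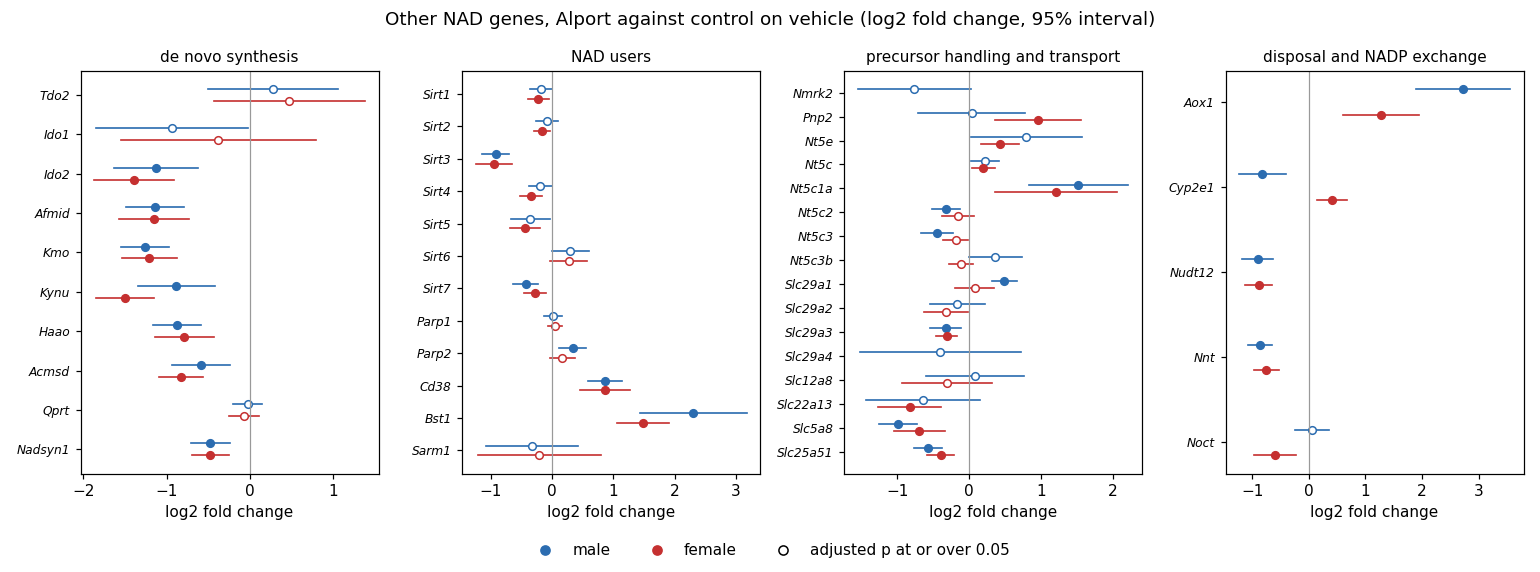
Log2 fold changes (horizontal axes, with 95% intervals) of vehicle-treated Alport against control mice for 4 lists of other NAD+ genes that were tested, males in blue and females in red, 4 against 4 mice; open points have an adjusted p at or over 0.05. In de novo synthesis 7 of 10 genes are filled and lie below 0 in each sex. Over all genes, 24.2% were called lower in males and 21.8% in females.

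By pattern over the 8 group means (log2 CPM, 14054 genes with a mean of at least 1 CPM), the gene most like *Nampt* was *Hipk3* (r = 0.994), that most like *Nadk2* was *Cept1* (r = 0.997), and that most like *Naprt* was *Mcat* (r = 0.998). *Nmrk1* was most like *Uri1* (r = 0.992), *Nmnat1* like *BC003965* (r = 0.993), *Nadk* like *Ufm1* (r = 0.996) and *Nnmt* like *Prrx1* (r = 0.99). *Pnp* was nearest to *Tsn* (r = 0.97), *Nmnat3* to *Tusc1* (r = 0.941) and *Nmnat2* to *Lrrc75a* (r = 0.977). With 8 points that share genotype, sex and treatment, such values are a description of likeness in this data set.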

How the data were processed

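Kidney cortex RNA was poly(A)-selected and sequenced for 32 mice (n = 4 per group). The authors aligned and counted the reads with BioJupies and deposited raw counts per gene symbol. A second deposited table held log10(CPM + 1) values, which equalled those recomputed from the counts (largest difference 4.44e-16) and was not used further. The submitters' processing notes name the build mm10, while the annotation and the use of strand were not given in the sources used here. Groups were taken from the sample labels. The 48 pairs of libraries within groups all differed by more than sampling noise (lowest chi-square statistic over its degrees of freedom 7.96).

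Each comparison was an edgeR 4.0.16 (R 4.3.3) quasi-likelihood fit of the mice compared, after filterByExpr (minimum count 10) and TMM scaling (factors 0.828 to 1.25). Benjamini-Hochberg adjustment covered all genes tested, with a threshold of 0.05, and no replicate block was used because same-numbered mice did not all deviate together: over 24 pairs r was -0.24 to 0.375, with 7 over 0.1. P-values measure the spread between these mice. DESeq2 1.42.0, limma-voom (limma 3.58.1), RLE factors, 2 other count filters, 1 fit of 32 mice, a replicate block and leaving out each mouse were tried as alternatives. All members were named, and other NAD+ genes where called in 1 of the 6 comparisons of genotype on vehicle or of NR, except *Qprt*, *Tdo2*, *Ido1* and *Parp1*, which were added after their values were seen. Members, lists and tests were chosen with earlier results of these data known, and the comparison on NR, the GC box and the marker relations after seeing the levels. Exon lengths came from GENCODE annotation and promoter windows from RefSeq.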

Additional observations from a re-analysis of the deposited data

Results flagged for a closer look

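Within each group of 4 mice, the highest and lowest mouse of each gene was compared with the others, over 80 combinations of gene and group, where chance alone marks about 1 in 20. The following 4 mice stood apart. *Nampt* in vehicle-treated female control replicate 4 was 228.7 CPM, below the 242.3 to 243.2 CPM of the other mice. *Nmnat2* in NR-treated male control replicate 1 was 0.1146 CPM, from 2 counts, where the others had 0.5701 to 0.5971 CPM. *Pnp* in NR-treated female Alport replicate 4 was 80.57 CPM against 90.74 to 92.7 CPM, and in vehicle-treated male Alport replicate 3 it was 74.12 CPM against 82.58 to 83.1 CPM.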

How the results depend on the processing

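In vehicle-treated mice, 7 members were called in each sex by DESeq2, limma-voom, RLE factors, no low-count filter, 1 fit of all 32 mice and the replicate block, and 6 with a minimum of 10 counts in every mouse, which removes *Nnmt*. The 1 fit of all 32 mice, in which all groups share an estimate of spread, moved the number of members called from 1 to 0 for NR in control females, from 2 to 4 and from 3 to 5 for NR-treated Alport against vehicle-treated control males and females, and from 0 to 4 for males on NR. DESeq2 called 1 member in that last comparison, and so did the replicate block (*Nadk2* -0.900, adjusted p = 0.049). Same-numbered mice did not all deviate together (24 pairs, r from -0.24 to 0.375, with 7 over 0.1, 3 of them among the 4 pairs of vehicle-treated females), and the labels tie the numbers to nothing shared. On NR in females DESeq2 added *Pnp* (-0.209, adjusted p = 0.0356) and 1 fit of all 32 mice lost *Nadk* (-0.309, adjusted p = 0.0649). The cause of these moves was not tested. Genes called with NR, main against DESeq2, were 0 and 62 in Alport males, 75 and 704 in Alport females, 666 and 1641 in control males and 924 and 1478 in control females, and 0 and 1381 in males on NR. In 1 fit of all 32 mice these were 88, 253, 18 (control females) and 4565 (males on NR), and with the replicate block 309 in control males, 371 in control females and 377 in males on NR. For the difference of genotype effects between sexes, 86 genes were called, against 258 by DESeq2, 46 by limma-voom, 52 with RLE factors and 5 in 1 fit of all 32 mice. For sex by NR in controls 105 genes were called, against 492 by DESeq2, 7 in 1 fit of all 32 mice and 61 with the replicate block. For NR by genotype no gene was called, against 18 in males and 30 in females by DESeq2. The 1 fit of all 32 mice called 6819 genes instead of 3199 for NR-treated Alport against vehicle-treated control males and 2799 instead of 4756 for sex in controls, and the replicate block 2292 instead of 3615 for NR-treated Alport against vehicle-treated control females. Without the low-count filter 116 genes were called for NR in Alport females and 191 for males on NR.

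With each mouse left out in turn, members called ranged from 6 to 8 in vehicle-treated males and 6 to 7 in females, 0 to 1 for NR in Alport males and in control males, 0 to 1 for the difference of genotype effects between sexes, 3 to 6 for NR-treated Alport against vehicle-treated control females and 4 to 7 for females on NR. The estimates below changed sign, and none of them was called in the comparison reported. For *Nmnat3* with NR in Alport males the log2 value was 0.012 (DESeq2 and RLE factors) and 0.011 (32 mice), and on NR in females -0.030 (no filter) and -0.036 (32 mice). For the difference of genotype effects between sexes they were 0.022 and 0.061 for *Nadk2* (DESeq2 and RLE factors, then 32 mice), 0.008, 0.009 and 0.048 for *Nmnat1* (DESeq2, RLE factors, 32 mice), 0.019 for *Nampt* and 0.018 for *Naprt* (32 mice). *Nmnat2* was at -0.069 by limma-voom for sex by NR in Alport mice.

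Leaving out 1 mouse gave these ranges of log2 values across 0. With NR in Alport males, *Nadk2* ran from -0.173 to 0.162, *Nmrk1* from -0.178 to 0.015, *Naprt* from -0.077 to 0.204, *Nmnat1* from -0.005 to 0.197 and *Nmnat3* from -0.057 to 0.075. *Pnp* ran from -0.054 to 0.061 in Alport females. With NR in control males *Naprt* ran from -0.056 to 0.006 and *Nmnat1* from -0.076 to 0.008, and in control females *Nmnat2* from -0.226 to 0.123. *Nmnat3* ran from -0.122 to 0.018 in vehicle-treated males and from -0.143 to 0.011 in NR-treated Alport against vehicle-treated control males, and *Nmnat2* from -0.257 to 0.202 in the females. On NR in females *Nmnat2* ran from -0.234 to 0.218 and *Nmnat3* from -0.057 to 0.078. For NR by genotype in males *Nadk2* ran from -0.062 to 0.264, *Naprt* from -0.084 to 0.201 and *Nmnat1* from -0.003 to 0.204, and in females *Naprt* from -0.027 to 0.127 and *Nadk* from -0.007 to 0.063. For sex by genotype *Nadk2* ran from -0.143 to 0.084, *Nampt* from -0.206 to 0.046, *Naprt* from -0.173 to 0.075, *Nmnat1* from -0.116 to 0.128 and *Nadk* from -0.009 to 0.197. For sex by NR in Alport mice *Nampt* ran from -0.283 to 0.092, *Naprt* from -0.108 to 0.179, *Nmnat2* from -0.158 to 0.309, *Nnmt* from -0.565 to 0.304 and *Nadk* from -0.169 to 0.082. Depth limits *Nmnat2* (2 to 20 counts a mouse) and *Nnmt* in controls.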
